A study of Mus musculus with 6 samples.

Results

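The genes described here encode the proteins of the cytosolic ribosome, taken by their symbols: Rpl or Rps followed by a number and the usual letters, together with Rplp0, Rplp1, Rplp2, Rpsa and Fau, and without the S6 kinase genes. The rule found 85 of the 18437 genes listed, which is 0.461% of them. Of the 85, 32 encode proteins of the small 40S subunit, 43 encode proteins of the large 60S subunit, 3 encode the P-stalk of the large subunit, and 7 are paralogs of one of these genes. The tumours were grown in the tongue of C57BL/6 mice by injection of 4MOSC1 cells, which come from a murine oral carcinoma of squamous type. The control group (3 libraries) received 4MOSC1 control cells, and the LIGHT group (3 libraries) received 4MOSC1 cells that overexpress LIGHT, a ligand of the TNF superfamily that is the product of Tnfsf14. Whole tumour tissue was used for bulk RNA sequencing after removal of ribosomal RNA, and the series concerns tertiary lymphoid structures in head and neck cancer. No mouse age, vector, promoter or clonal origin of the 2 cell lines was given in the sources used here, and the labels tie no library to an animal, so p-values measure the spread between these libraries, which may be technical.

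A ribosome pairs a small subunit, which reads the messenger RNA, with a large subunit, which joins the amino acids, and nearly every ribosomal protein is needed in a fixed amount relative to the others. The messages of these proteins start with an uninterrupted stretch of pyrimidines, the TOP element, through which the kinase mTOR and the RNA-binding protein LARP1 set their translation together. MYC is known to raise the transcription of ribosomal protein and ribosome assembly genes in growing cells.

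All values are TPM, a share of all transcripts corrected for gene length, so levels can be compared between genes. TPM holds no read depth, and the depth behind each value is unknown. Tnfsf14 was listed at 0.66, 0.53 and 0.79 TPM in the control libraries and at 26.2, 25.9 and 23.9 TPM in LIGHT libraries, a mean 38.4-fold higher. The 12 squamous and keratinocyte markers summed to 28780 to 33453 TPM in control libraries and 20860 to 28756 TPM in LIGHT libraries. They did not move together. The log2 difference, LIGHT minus control, was negative for 7 and positive for 5 of them, with a median of -0.09. The abundant Krt6a went from 8625 to 5695 TPM in the group means, and Krt17 from 1904 to 2623 TPM. Markers of other cells also differed between libraries. T cell markers summed to 66.9 to 163 TPM in control libraries and 252 to 304 TPM in LIGHT libraries, and macrophage markers to 606 to 701 and 964 to 1331 TPM. Skeletal muscle markers summed to 6855, 4053 and 4425 TPM in control libraries and 6272, 10585 and 7549 TPM in LIGHT libraries, and haemoglobin markers to 70.0, 453 and 86.8 TPM and 119, 2086 and 896 TPM. In a bulk sample, fewer cells of a type and less RNA per cell cannot be told apart.

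The ribosomal protein genes were among the most abundant messages of these tumours. They made up 24 of the 50 most abundant genes and 54 of the 100 most abundant. Their summed TPM was 23.8%, 24.9% and 23.3% of the total in the control libraries and 22.5%, 24.2% and 22.8% in the LIGHT libraries. The means were 24.0% ± 0.827 and 23.2% ± 0.899 (SD, n = 3 each), a difference of -0.85 percentage points that was close to 1 SD of either group, and the groups overlapped. The difference was -0.39 without control replicate 2 and -1.36 without LIGHT replicate 2. With the 20 most abundant other genes taken out of the total, the shares were 28.2% in control and 26.4% in LIGHT tumours, without overlap. The 40S genes held 11.04% of the total in control and 10.5% in LIGHT tumours, the 60S genes 11.1% and 10.9%, the P-stalk genes 1.72% and 1.68%, and the paralogs 0.152% and 0.144%. Each of these sums overlapped between the groups. The total itself was less concentrated in LIGHT tumours, where 41 to 43 genes made up 25% of it, against 32 to 36 genes in control tumours.

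**Figure D1:**
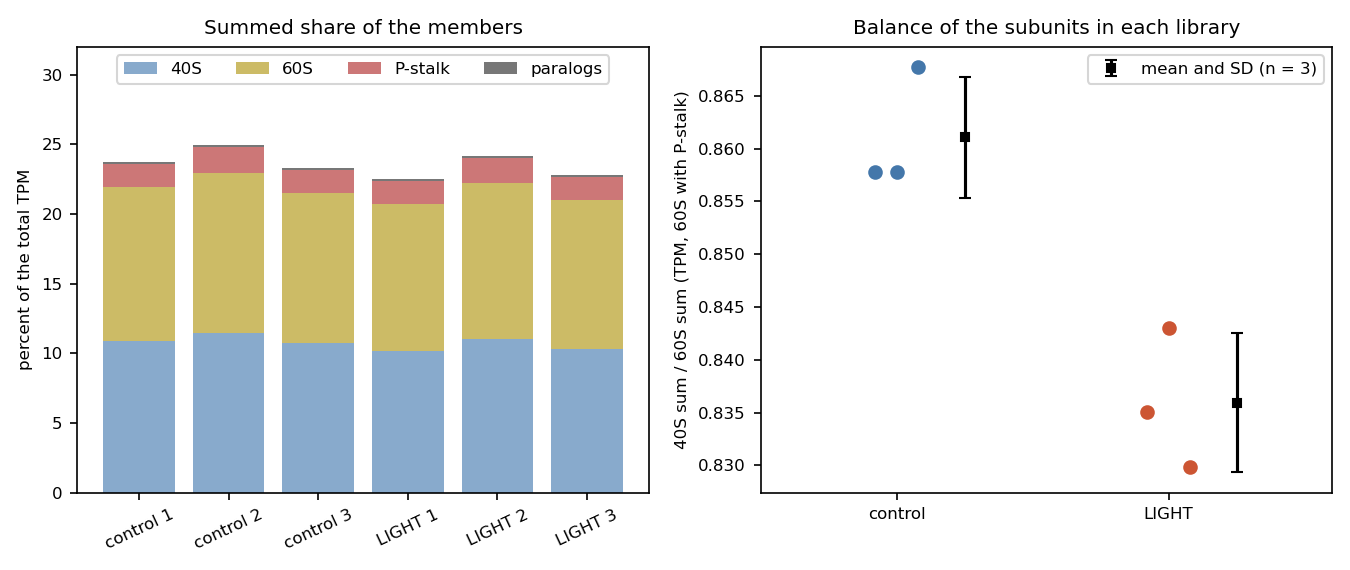
Left, summed TPM of the ribosomal protein genes as a percent of the total TPM in each of the 6 libraries. Right, the 40S sum divided by the 60S sum, P-stalk included, in each library; the shares overlapped between 3 control and 3 LIGHT libraries, while the ratio was 0.858 to 0.868 in control and 0.830 to 0.843 in LIGHT libraries.

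The levels of the 78 genes that are not paralogs spanned a wide range around a median of 2354 TPM, with quartiles at 1604 and 3948 TPM. Of these genes 59 lay between 1000 and 5000 TPM, 11 above and 8 below. Rps26, whose protein lines the exit of the messenger RNA from the small subunit, was the highest at 11860, 12986 and 13737 TPM in control libraries and 11581, 12490 and 12346 TPM in LIGHT libraries. Rps27 and Rplp1 followed, at means of 9511 and 9413 TPM in control tumours. Rps6, the 40S protein phosphorylated by S6 kinase, was the lowest at 47.3, 45.5 and 46.3 TPM in control libraries and 42.1, 48.1 and 53.2 TPM in LIGHT libraries. Neither Rps26 nor Rps6 separated the groups.

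The low level of Rps6 stood beside a high level of its processed copy. Rps6-ps4, which the naming rule does not take, was listed at 4087, 4188 and 3969 TPM in control libraries and 3601, 3955 and 3659 TPM in LIGHT libraries, so Rps6 was 1.14% and 1.28% of it in the group means. The labels and file headers do not say how reads were divided between near-identical copies. GENCODE vM21 names 294 pseudogenes for 61 of the 85 genes, and the table lists 3 of them. Rps12 has 23 named pseudogenes, Rpl7a has 13 and Rps2 has 11, so the levels of these genes are uncertain in the same way.

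**Figure D2:**
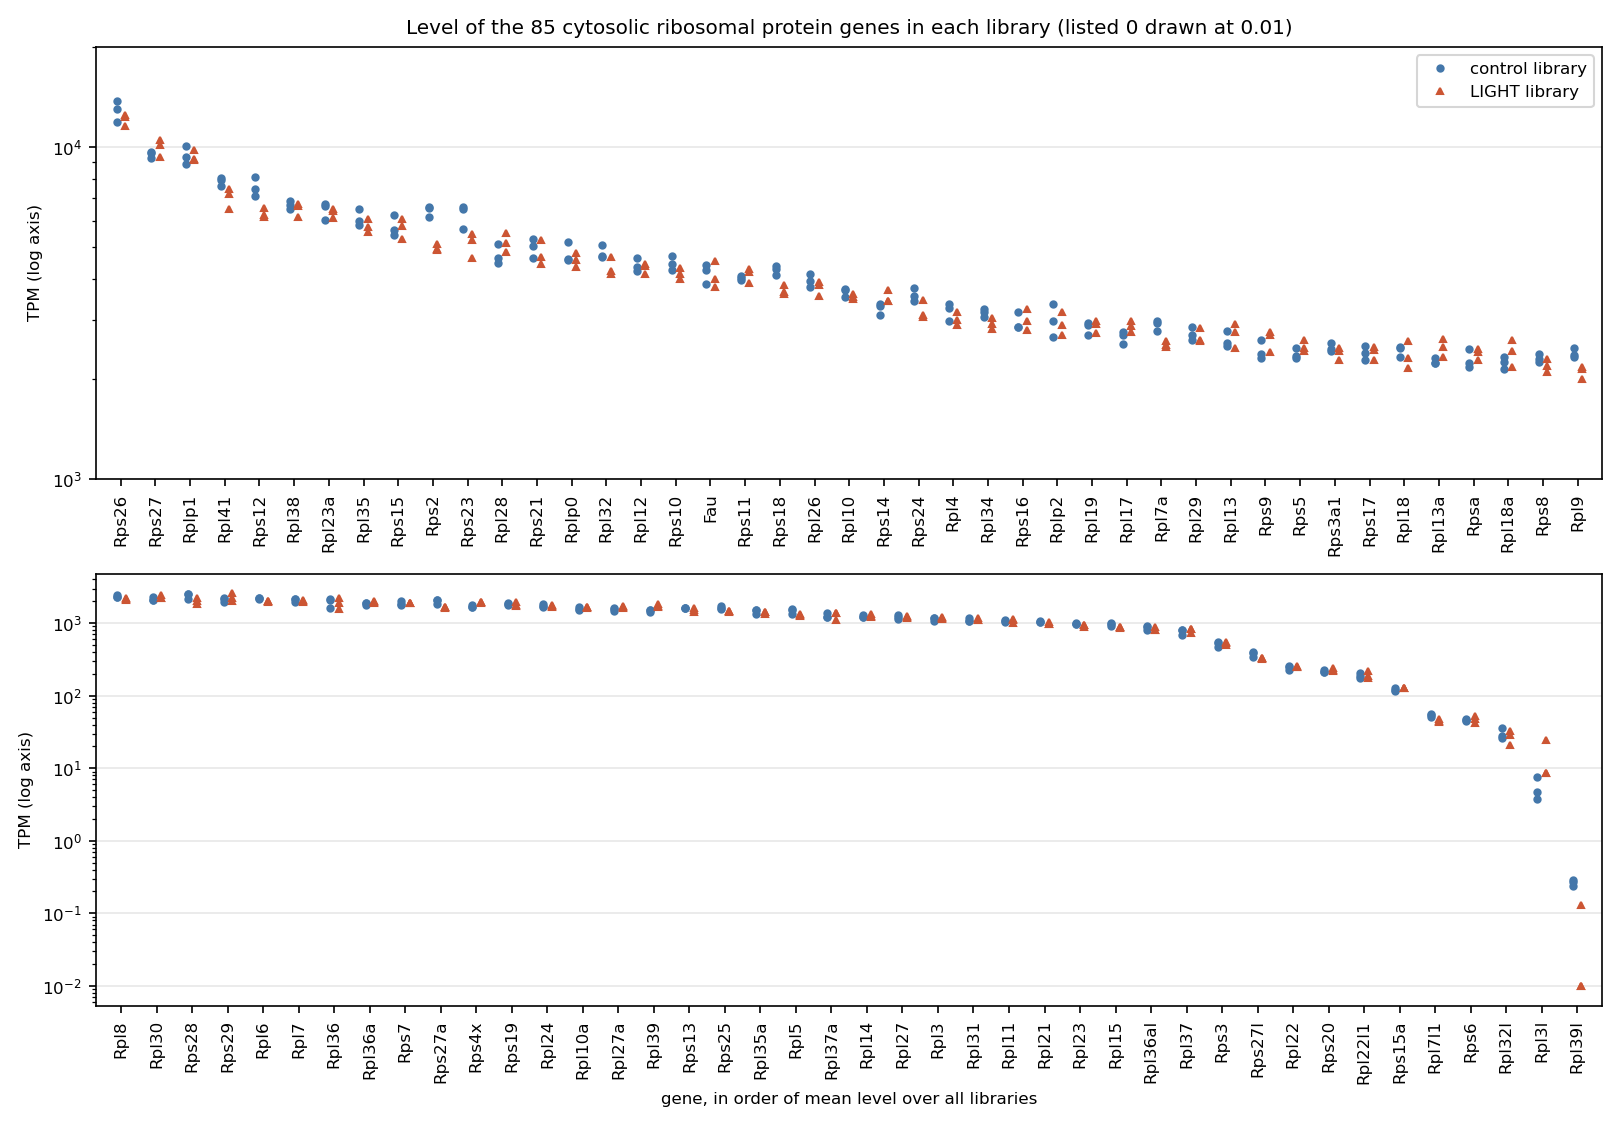
TPM (log axis) of each of the 85 ribosomal protein genes in 3 control and 3 LIGHT libraries, 1 point per library. The libraries lie close together for most genes, from Rps26 at a mean of 12500 TPM down to Rps6 at 47.1 TPM among the genes that are not paralogs.

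The order of the levels hardly moved between libraries. Spearman correlations of the 78 genes between a control and a LIGHT library were 0.981 to 0.991, given as a description because these points share a library and a gene length model. The median coefficient of variation of a gene was 4.77% over the control and 4.46% over the LIGHT libraries. Rpl36 varied most, at 14.9% and 18.0%, with 2106, 2121 and 1610 TPM in control libraries and 1563, 2246 and 1889 TPM in LIGHT libraries. Single libraries tended to be high or low for many genes at once. Control replicate 2 held the highest value of 31 of the 78 genes and LIGHT replicate 2 of 28, while LIGHT replicate 1 held the lowest value of 27 and control replicate 3 of 22.

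Few ribosomal protein genes passed the test between LIGHT and control tumours, and those that did were lower in LIGHT tumours. With the TPM as deposited they were 2 genes of the small subunit. Differences are in log2(TPM + 1), LIGHT minus control, tested with limma across the 13167 genes that reached 1 TPM in 3 or more libraries, with a Benjamini-Hochberg adjusted p under 0.05 as the threshold. Of the 85 genes 84 were tested, 0 rose and 2 fell, Rps2 and Rps27a. The background was 23.1% of all tested genes called, 17.7% as higher and 5.41% as lower, against 2.38% of the ribosomal protein genes. At an unadjusted p under 0.05, limma gave 3 higher and 8 lower, 13.1% of the 84 against 36.8% of all tested genes. The median difference was -0.03, with quartiles at -0.10 and 0.05, beside a median of 0.09 over all tested genes with quartiles at -0.09 and 0.34. Another scaling moved these medians. The shares of all tested genes called, given above, are for the TPM as deposited only. With trimmed-mean (TMM) factors the ribosomal protein genes had a median of -0.13, all tested genes 0.00, and 7 ribosomal protein genes were called lower: the 40S genes Rps2, Rps25 and Rps27a, the 60S genes Rpl5 and Rpl7a, and the paralogs Rpl7l1 and Rps27l. With quantile normalization the medians were -0.02 and -0.04, and 3 were called lower, Rps27a and the paralogs Rpl7l1 and Rps27l. Without LIGHT replicate 1 the median of the ribosomal protein genes was 0.00. Leaving out control replicate 1 or 2 or LIGHT replicate 3, or adding the muscle or haemoglobin markers as a covariate, left 0 called with limma. No share of all tested genes stands beside these counts, and why the calls were lost was not tested. With either covariate, the lower calls among the 20 proliferation genes described below also went from 16 to 0.

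The tested ribosomal protein genes, the called ones included, were measured closely enough to bound most of their differences. The median standard error was 0.08 on the log2 scale, against 0.12 over all tested genes. The 95% interval excluded a change by a factor of 1.5 in either direction for 83 of the 84 genes (98.8%), against 61.1% of all tested genes. It excluded a change by a factor of 1.25 for 60 of the 84 (71.4%), against 18.8% of all tested genes. Rpl3l was the 1 gene whose interval reached a factor of 1.5. Among the others the bounds ran from -0.56 (Rps2) to 0.39 (Rpl39). These intervals hold for the TPM as deposited and were not counted under other scalings. In other settings the difference of Rps2 itself ran down to -0.46.

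In the small subunit, the 2 called genes were both abundant. Rps2, a protein at the entry of the messenger RNA channel and a substrate of the arginine methyltransferase PRMT3, was at 6543, 6606 and 6147 TPM in control libraries and 4907, 5114 and 4928 TPM in LIGHT libraries. Every LIGHT library was below every control library. The mean fell from 6432 ± 249 to 4983 ± 114 TPM (SD, n = 3 each), a log2 difference of -0.37 (SE 0.08, limma adjusted p = 0.0174). Its position is chr17:24718121-24721927 in GRCm38.p6, a span that also holds the RNA genes Snora64, Snora78 and Snhg9, whose reads may not be separable from those of Rps2. The negative direction held in all 16 other settings, from -0.46 to -0.21, and it passed the threshold in 9 of them (limma adjusted p from 0.0124 to 0.154). With the muscle markers as a covariate the difference was -0.41 and with the haemoglobin markers -0.40, and neither passed (limma adjusted p = 0.154 and 0.0514). The call was also lost without control replicate 1 or 2 or LIGHT replicate 3 (limma adjusted p = 0.0645, 0.059 and 0.0611), after quantile normalization (0.119) and without the filter on low values (0.072).

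Rps27a, made as a fusion of ubiquitin with a 40S protein, was at 2117, 2093 and 1862 TPM in control libraries and 1670, 1677 and 1609 TPM in LIGHT libraries. The groups did not overlap. The mean fell from 2024 ± 141 to 1652 ± 37.5 TPM, a log2 difference of -0.29 (SE 0.08, limma adjusted p = 0.0426). Its position is chr11:29545842-29548040. The difference stayed between -0.39 and -0.26 in the 16 other settings, and 7 of these passed the threshold (limma adjusted p from 0.0199 to 0.213). The call was lost without control replicate 1 or 2, or without any 1 LIGHT library, with the muscle or haemoglobin covariate, without the filter on low values and without the trend.

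Other 40S genes had lower values in LIGHT tumours without passing the threshold. Rps12 was at 7464, 8127 and 7103 TPM in control libraries and 6234, 6560 and 6129 TPM in LIGHT libraries (log2 difference -0.26, limma adjusted p = 0.0745). Rps23, a protein of the decoding centre, was at 6587, 6491 and 5648 TPM in control libraries and 5251, 5450 and 4613 TPM in LIGHT libraries (-0.29, limma adjusted p = 0.0866). Rps18, of the head of the subunit, was at 4274, 4373 and 4102 TPM and 3846, 3658 and 3607 TPM (-0.20, limma adjusted p = 0.112). In these 3 genes and in Rps25 the LIGHT libraries were all below the control libraries.

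The opposite direction was seen in Rps4x, the X-linked S4 gene, at 1657, 1804 and 1686 TPM in control libraries and 1920, 1954 and 1981 TPM in LIGHT libraries (0.19, limma adjusted p = 0.119). Rps14, on the platform of the subunit, was also higher in every LIGHT library, with means of 3270 and 3528 TPM and a log2 difference of 0.11. Rpsa, also known as the laminin receptor, and Fau, a fusion of a ubiquitin-like protein with a 40S protein, overlapped between the groups. Rpsa was at 2287 and 2384 TPM and Fau at 4176 and 4100 TPM in the group means. Over the 32 genes of the subunit 18 differences were negative and 14 positive, with a median of -0.02.

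In the large subunit 0 of 43 genes passed the threshold with limma, and 1 was higher and 1 lower at an unadjusted p under 0.05, with differences from -0.20 to 0.21 and a median of -0.03. With TMM factors 2 of them were lower, Rpl5 and Rpl7a. Rpl5, which binds the 5S ribosomal RNA and can bind MDM2, was at 1550, 1540 and 1348 TPM in control libraries and 1317, 1237 and 1311 TPM in LIGHT libraries (log2 difference -0.20, limma adjusted p = 0.142). Rpl7a was at 2952, 2985 and 2783 TPM and 2603, 2494 and 2524 TPM (-0.19, limma adjusted p = 0.11). Rpl9 was at 2356, 2477 and 2336 TPM and 2149, 2174 and 1997 TPM (-0.18, limma adjusted p = 0.138). The LIGHT libraries were below the control libraries in each, as they were in Rpl6, Rpl8, Rpl15, Rpl23, Rpl32, Rpl34 and Rpl41.

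Rpl39, a small protein that lines the exit tunnel of the growing peptide, had the largest positive difference of the subunit. It was at 1494, 1521 and 1444 TPM in control libraries and 1702, 1819 and 1644 TPM in LIGHT libraries (0.21, limma adjusted p = 0.0917). Rpl13a, with means of 2259 and 2488 TPM, and Rpl17, with means of 2676 and 2885 TPM, were also higher in every LIGHT library. The P-stalk genes, whose proteins recruit the translation factors, overlapped between the groups. Rplp0 was at 4767 ± 335 and 4563 ± 220 TPM, Rplp1 at 9413 ± 592 and 9352 ± 353 TPM, and Rplp2 at 3010 ± 353 and 2931 ± 239 TPM (SD, n = 3 each).

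Counted over both subunits and the paralogs, 18 of the 84 tested genes had all LIGHT libraries below all control libraries and 6 had them all above. Over all tested genes these shares were 11.6% below and 29.6% above, or 41.2% in either direction, against 28.6% of the ribosomal protein genes. Across the 76 genes with a coding length that are not paralogs, the difference had a Spearman correlation of -0.08 with coding length, from Rpl41 at 75 bases to Rpl4 at 1257 bases, and across the 78 genes of -0.27 with level. These correlations are across genes of the same libraries and are descriptions.

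**Figure D3:**
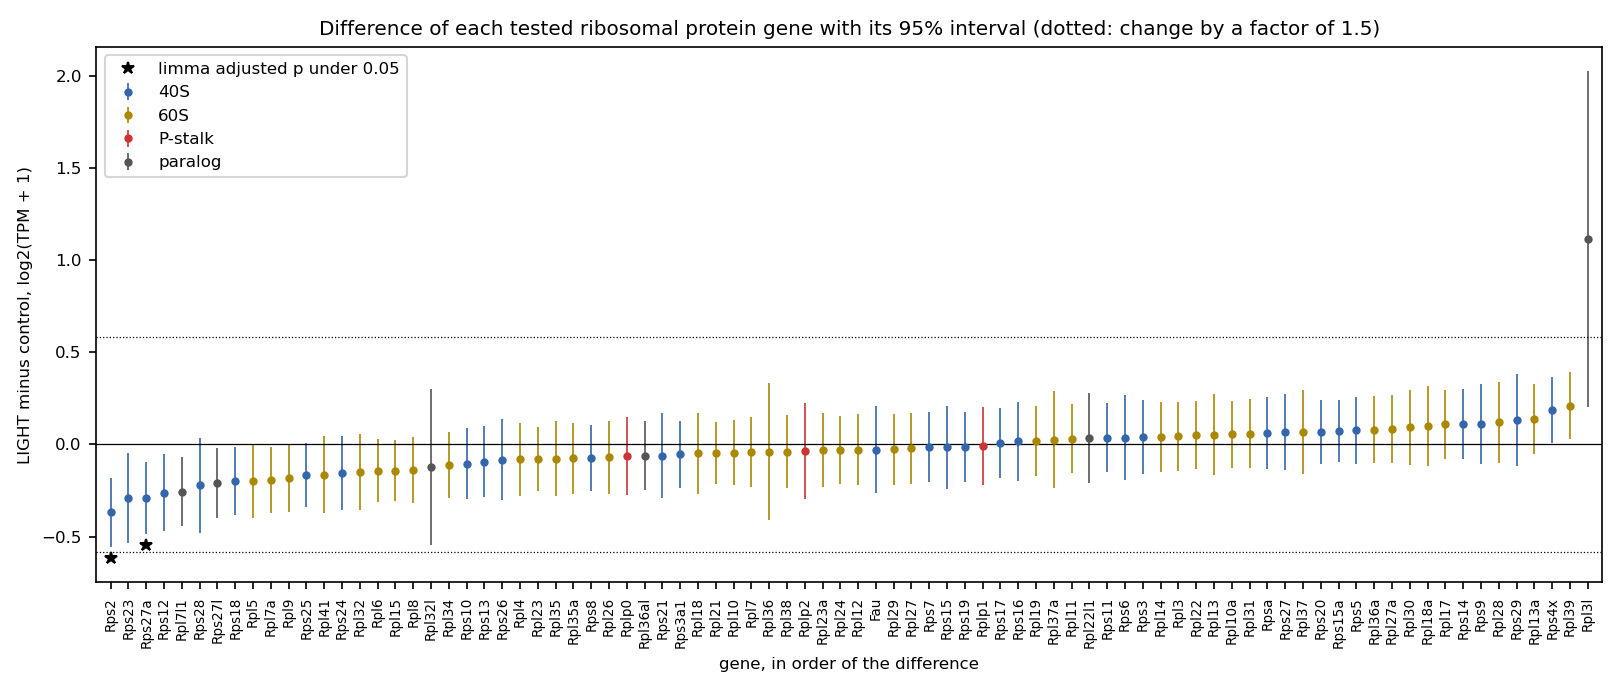
Log2(TPM + 1) difference, LIGHT minus control, with its 95% interval for the tested ribosomal protein genes, ordered by size and coloured by subunit. Rps2 at -0.37 and Rps27a at -0.29 are the 2 that passed the threshold, and Rpl3l, at 1.11, is the 1 whose interval reached a change by a factor of 1.5.

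The largest differences in TPM were in abundant genes. The sum of the group means went from 240212 to 231709 TPM. Rps2 accounted for -1449 TPM, Rps12 for -1257 TPM, Rps23 for -1137 TPM and Rpl41 for -833 TPM, together -4676 TPM. The 51 genes with a lower mean summed to -12291 TPM and the 34 with a higher mean to 3788 TPM, a net of -8503 TPM. The largest gains were in Rps27 (454 TPM) and Rpl28 (411 TPM), both with overlapping groups. The 40S sum divided by the 60S sum was 0.858, 0.858 and 0.868 in the control and 0.835, 0.843 and 0.830 in the LIGHT libraries. The means were 0.861 ± 0.00573 and 0.836 ± 0.00661, without overlap, a log2 difference of -0.04 in a quantity chosen after the data were seen.

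A further fit asked which genes departed from the rest of the ribosomal protein genes, by subtraction of their median from each library before the test. Relative to that median, 1 gene was higher and 1 lower, beside 17.2% of all tested genes called. Rps2 was lower (limma adjusted p = 0.0179) and Rpl3l was higher (limma adjusted p = 0.0393). Both calls were lost with the muscle or the haemoglobin covariate and after quantile normalization. The call of Rps2 was lost without the trend and without control replicate 1 or 2 or LIGHT replicate 3, and that of Rpl3l without control replicate 2 or 3 or LIGHT replicate 2. Without LIGHT replicate 1, Rps12, Rps23 and Rps27a were lower as well.

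The starts of genes described above are shown to compare their pyrimidine stretches. Rps27a was not matched. Each line gives 15 bases before and 15 bases from the RefSeq transcription start (GRCm38.p6) on the strand of the gene, with runs of at least 5 C or T in capitals. A run at the edge of the window may continue outside it.
Rps2, chr17:24720048-24720077, plus strand: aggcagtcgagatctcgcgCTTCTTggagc
Rps12, chr10:23787195-23787224, minus strand: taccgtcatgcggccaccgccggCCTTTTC
Rps23, chr13:90923107-90923136, plus strand: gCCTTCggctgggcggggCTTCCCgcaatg
Rps18, chr17:33955651-33955680, minus strand: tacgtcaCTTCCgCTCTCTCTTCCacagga
Rpl7a, chr2:26910792-26910821, plus strand: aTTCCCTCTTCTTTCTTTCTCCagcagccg
Rpl39, chrX:37085208-37085237, minus strand: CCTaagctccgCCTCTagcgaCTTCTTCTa
Rps4x, chrX:102189377-102189406, minus strand: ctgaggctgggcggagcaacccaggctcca
Rpl7l1, chr17:46782642-46782671, minus strand: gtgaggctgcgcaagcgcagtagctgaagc
Of the genes shown, only Rps2 passed the threshold. Genes with a negative and with a positive difference both had such runs near the start. In this window Rps2 and Rpl7a (negative) and Rpl39 (positive) held them. Rps4x (positive) and the paralog Rpl7l1 (negative) did not. RefSeq starts can differ from the start used in a given tissue.

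RefSeq promoters of 300 bases, 250 before and 50 after the start, were matched for 65 of the 85 genes. A run of at least 8 C or T touching the 20 bases on either side of the start was found in 35 of the 65 (53.8%), against 24.1% of the tested genes with a promoter and 23.7% of all 27025 genes with one. The letters CCGGAAG, the core bound by ETS family factors, were found on either strand in 26 of the 65 (40%), against 19.2% and 9.93%. GCCATNTT, the core bound by YY1, was found in 14 (21.5%), against 9.54% and 6.96%. GGGCGG, bound by SP1 family factors, was found in 40 (61.5%), against 66.0% and 38.2%. TATAAA was found in 8 (12.3%), against 9.98% and 15.7%. Of the 18 genes lower in every LIGHT library 15 had a promoter in the table, and 8 of these held CCGGAAG and 8 the pyrimidine run. A match is a description of the letters and shows no binding.

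The paralogs are close relatives of ribosomal protein genes, and some of them are used in particular tissues or states. Rpl3l, which replaces Rpl3 in heart and skeletal muscle, was at 7.57, 4.75 and 3.73 TPM in control libraries and 8.67, 24.4 and 8.60 TPM in LIGHT libraries. Every LIGHT library was above every control library, and LIGHT replicate 2, the highest, was also the highest in muscle markers. The log2 difference was 1.11 (SE 0.39, limma adjusted p = 0.0789), 0.65 without LIGHT replicate 2 and 0.12 with the muscle markers as a covariate (limma adjusted p from 0.064 to 0.876 over the 16 settings). All 22 muscle markers had a positive difference and 1 of them passed the threshold. Over all tested genes 37.8% had a negative difference, and 17.7% were called higher. The part of muscle content in the difference of Rpl3l was not tested. Rpl3l (chr17:24727826-24736143) lies close to Rps2, with Ndufb10 between them in RefSeq, and the differences of Rpl3l and Rps2 had opposite signs.

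Rpl7l1, a paralog of Rpl7, was at 54.8, 56.6 and 51.1 TPM in control libraries and 47.2, 43.7 and 44.6 TPM in LIGHT libraries (log2 difference -0.26, limma adjusted p = 0.0555). Rps27l, a paralog of Rps27 that p53 can induce, was at 397, 386 and 345 TPM and 328, 329 and 316 TPM (-0.21, limma adjusted p = 0.105). Both were below the control libraries in every LIGHT library. Rpl22l1 was at 189 and 194 TPM, Rpl36al at 868 and 831 TPM and Rpl32l at 30.0 and 27.6 TPM in the group means, with overlapping groups. Rpl39l, known for its use in the testis, was too low to be tested. It was at 0.29, 0.27 and 0.24 TPM in control libraries and 0, 0.13 and 0 TPM in LIGHT libraries.

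Each paralog was also set against its parent gene in each library. Rpl7l1 was 2.61% of Rpl7 in control and 2.24% in LIGHT tumours, Rps27l was 3.95% and 3.26% of Rps27, and Rpl36al was 46.9% and 42.5% of Rpl36a. Rpl3l was 0.462% and 1.19% of Rpl3. Rpl39l was 0.0179% and 0.00238% of Rpl39, from values too low to be tested. These pairs did not overlap, and for each the exact two-sided permutation test gave p = 0.1, the smallest that 20 assignments allow, or 0.12 adjusted over the 6 pairs compared. Rpl22l1 was 78.1% and 76.9% of Rpl22, with overlap. The pair of Rpl32l and Rpl32 was added after the data were seen and stands outside the 6. It was at 0.626% and 0.635%, with overlap. Among single tested genes, 41.2% did not overlap between the groups.

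**Figure D4:**
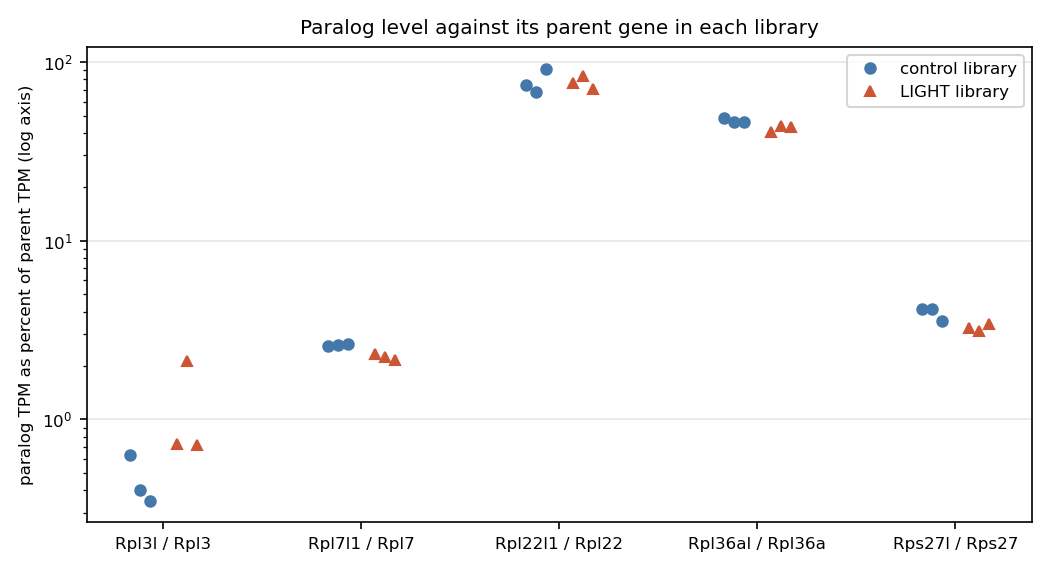
TPM of 5 paralogs as a percent of the TPM of the parent gene (log axis), 1 point per library, control and LIGHT. Rpl7l1, Rpl36al and Rps27l are lower and Rpl3l is higher in the LIGHT libraries, and Rpl22l1 overlaps.

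Ribosomal proteins whose symbols the rule does not take behaved differently from one another. Rack1, the scaffold protein of the 40S head, was at 2094 and 1781 TPM in the group means, without overlap (log2 difference -0.23, limma adjusted p = 0.0703). Rpl37rt, a retrotransposed copy, rose from 43.3 to 60.8 TPM (0.48, limma adjusted p = 0.0384), and Rps27rt was at 256 and 292 TPM. The call of Rpl37rt held in 7 of the 16 other settings, and was lost with TMM factors, after quantile normalization, without the filter on low values, without control replicate 1, control replicate 3, LIGHT replicate 2 or LIGHT replicate 3, and with either covariate. Reads from such copies and their parents may not be separable.

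Several genes that assemble ribosomes were lower in LIGHT tumours. Of 55 ribosome biogenesis genes 9 fell and 0 rose at the same threshold, with 51 negative differences (92.7%, against 37.8% of all tested genes) and a median of -0.24. Over all tested genes 5.41% were called lower with the TPM as deposited. Dkc1, the pseudouridine synthase dyskerin, was at 35.8, 32.2 and 30.0 TPM in control libraries and 24.1, 19.8 and 20.3 TPM in LIGHT libraries, and fell by 0.59 (limma adjusted p = 0.0101). Polr1a, the largest subunit of RNA polymerase I, fell from 21.6 to 15.4 TPM and Nop2, a ribosomal RNA methyltransferase, from 57.7 to 42.1 TPM. The summed TPM of the list was 0.353% ± 0.0244 of the total in control and 0.300% ± 0.0142 in LIGHT tumours (SD, n = 3 each), without overlap. The count of falls moved with the setting. It was 34 with TMM factors, 32 after quantile normalization and 15 with the replicate number as a block, 1 if control replicate 1 or 2 or LIGHT replicate 2 or 3 was left out, 3 without control replicate 3, and 0 with the muscle or haemoglobin covariate, where the median was -0.27 and -0.12. The median of all tested genes moved as well, from 0.09 as deposited to -0.002 with TMM factors and -0.04 after quantile normalization. No share of all tested genes stands beside the counts of these other settings. Dkc1 passed in 14 of the 16 other settings (limma adjusted p from 0.00368 to 0.108), Polr1a in 10 and Nop2 in 9. Of 20 proliferation genes 16 fell and 0 rose, with a median of -0.39, and 2 to 4 fell if control replicate 1 or 2 or LIGHT replicate 2 or 3 was left out. The number of falls was 19 with TMM factors, 8 without the filter on low values, and 0 with the muscle or haemoglobin covariate, where the median was -0.44 and -0.32.

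Translation factors and the regulators of ribosomal protein messages passed the threshold in single genes only. As a background, 17.7% of all tested genes were called higher and 5.41% lower with the TPM as deposited. The initiation factors were taken by their Eif symbols, so the list also holds the kinase genes Eif2ak1, Eif2ak2, Eif2ak3 and Eif2ak4. Of the 48 tested genes of this list 1 rose, Eif3f, from 293 to 428 TPM (log2 difference 0.54, limma adjusted p = 0.00513), and 0 fell. Eif3f passed in 15 of the 16 other settings, the exception being the muscle covariate (limma adjusted p from 0.00526 to 0.0852). With TMM factors 10 initiation factors were lower, at a list median of -0.16 beside -0.002 over all tested genes. No share of all tested genes stands beside that count. Eif3f was also the 1 call among 20 other genes known to have TOP messages. Of 13 tested elongation and termination factors 2 rose, Eef1a2 (8.19 to 15.5 TPM), the form of elongation factor 1A used in muscle and neurons, and Eef2k (4.88 to 7.76 TPM), the kinase that inhibits elongation factor 2. Both calls were lost without control replicate 2 or 3 or LIGHT replicate 3 and with the muscle or haemoglobin covariate, and that of Eef1a2 also without LIGHT replicate 2. Of 17 tested genes of mTOR, LARP1, MYC and S6 kinase control 1 fell, Mxd1, a partner of MAX that opposes MYC, from 140 to 70.5 TPM (-0.98, limma adjusted p = 0.00124), and it passed in all 16 other settings. Myc was at 76.7 and 79.1 TPM, Larp1 at 61.1 and 60.7 TPM and Mtor at 14.8 and 15.4 TPM, all with overlapping groups.

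Other large complexes also had medians near 0. Of 78 mitochondrial ribosomal protein genes 2 rose and 3 fell, with a median of -0.01. Mrpl55 rose from 35.0 to 45.7 TPM and Mrpl28 fell from 87.5 to 67.2 TPM. With TMM factors 1 rose and 12 fell, and with the muscle covariate or without LIGHT replicate 3 the count was 0 in both directions with limma. The call of Mrpl55 was lost in those 2 settings, and that of Mrpl28 in them, with the haemoglobin covariate and without control replicate 1 or 2. Of 14 proteasome core genes 0 passed the threshold with limma and 0 had an unadjusted p under 0.05, with a median of 0.04, and 1 was lower after quantile normalization. Of 75 nuclear oxidative phosphorylation genes 6 rose and 1 fell, Ndufa4 from 3904 to 2919 TPM, with a median of 0.08. Their rises numbered 1 with TMM factors, where the median was -0.02, and 0 without control replicate 3 or LIGHT replicate 2. They were also 0 with the muscle covariate, at a median of -0.03, and with the haemoglobin covariate. The share of the total held by this list was highest in LIGHT replicate 2 (3.61%), the library with the highest muscle and haemoglobin markers. Whether muscle or blood content bears on these rises was not tested. The call of Ndufa4 was lost with either covariate and without control replicate 1 or LIGHT replicate 3. With the TPM as deposited, 17.7% of all tested genes were called higher and 5.41% lower. These lists were described by their counts and medians, and no difference between lists was tested.

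**Figure D5:**
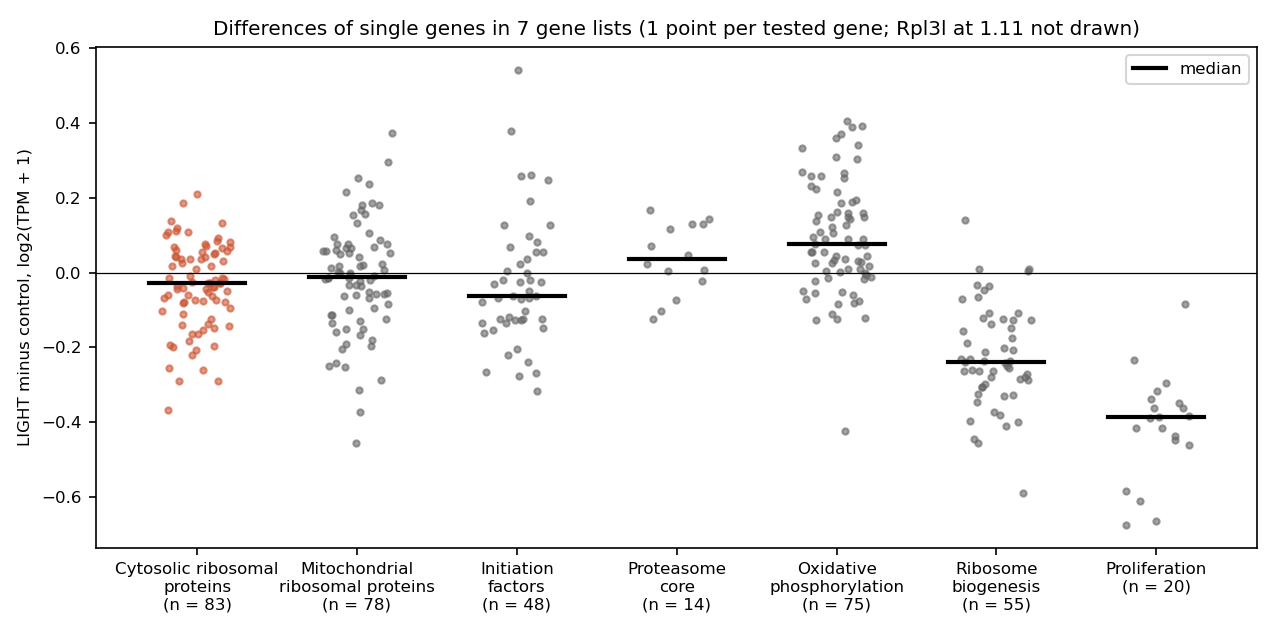
Log2(TPM + 1) difference, LIGHT minus control, of the tested genes of each list, 1 point per gene, with the median as a bar. Rpl3l, at 1.11, was left out of the points and of the bar. The ribosomal protein genes lie close to 0, with a median of -0.03, while ribosome biogenesis genes have a median of -0.24 and proliferation genes of -0.39.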

How the data were processed

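RNA sequencing of 3 control and 3 LIGHT tumours was analysed from the deposited TPM, given per gene with 2 decimals and 1 column per library, per the file headers. HISAT, Bowtie2 and GRCm38.p6 are named, without roles or versions, per the submitters' processing notes. No quantifier or annotation was given in the sources used here. Ribosomal RNA was removed by RNase H or Ribo-Zero, per the labels' protocols. TPM are shares of 1 total, so a rise of some genes lowers the others.

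Genes that reached 1 TPM in 3 or more libraries entered a fit of log2(TPM + 1) in limma 3.58.1 (R 4.3.3, mean-variance trend), two-sided, all 6 libraries, checked on simulated data. Paralog ratios had exact permutation tests. The genes named are the 12 ribosomal protein genes with the smallest unadjusted p, the 6 most abundant, the P-stalk genes, Rpsa, Fau, Rps27a, the paralogs with their parents, and up to 4 of each other list by smallest p. Rps6, Rps6-ps4, Rpl5, Rpl36, Rpl28, Rps14, Rpl13a, Rpl17, Rpl32l, Myc, Larp1, Mtor and genes named only for a call or for groups that did not overlap were added after their values were seen. The genes, lists and tests were chosen with earlier results of these data known. Alternatives were other pseudocounts, filters and scalings (TMM factors and quantile), each library left out, the replicate number as a block, no trend, and muscle or haemoglobin covariates. Replicate numbers were not treated as pairing. In deviations from the group means, same-numbered libraries correlated at 0.37, 0.237 and 0.00995. Libraries of unlike number correlated at -0.447 to 0.332, so these values do not decide whether the numbers are pairs. Promoters and coordinates are from RefSeq, GRCm38.p6, and pseudogene names from GENCODE vM21. The result of 1 gene is not reported here.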

Additional observations from a re-analysis of the deposited data

How the results depend on the processing

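The number of ribosomal protein genes called lower was 1 without the filter on low values (Rpl39l), 7 with TMM factors, 1 without the trend, 0 with the muscle covariate, 0 with the haemoglobin covariate, and 0 to 2 with 1 library left out (0 without LIGHT replicate 3, control replicate 1 or control replicate 2). No setting called one higher. With the replicate block 3 were called lower, Rps23 being added, and not every library correlated best with the one of its own number. The median log2 difference was -0.13 with TMM factors, where the median of all tested genes was lower as well. Relative to the median ribosomal protein gene, the lower calls numbered 2 without the filter, 3 with quantile normalization, 0 without the trend, 0 with either covariate and 0 to 4 with 1 library left out. The higher calls numbered 0 with quantile normalization, 0 with either covariate and 0 to 1 with 1 library left out (0 without control replicate 2 or 3 or LIGHT replicate 2).

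Direction changed for genes that no setting called. With quantile normalization Rps26 was at 0.018, Rplp1 at 0.24, Rpl41 at 0.16, Rpl38 at 0.18, Rplp0 at 0.024, Rplp2 at 0.038, Fau at 0.089, Rpl7 at 0.0061, Rpl3 at -0.067, Rpl22l1 at -0.060 and Rpl22 at -0.067. With TMM factors Rps27 was at -0.031, Rpsa at -0.036, Rpl3 at -0.053, Rpl22l1 at -0.061, Rpl22 at -0.047 and Rpl36a at -0.016. With the muscle covariate Rplp1 was at 0.032 and Rpl22l1 at -0.072, and with the haemoglobin covariate Rpsa was at -0.020. With 1 library left out the ranges were Rplp1 from -0.050 to 0.039, Rpl38 from -0.064 to 0.0029, Rplp2 from -0.12 to 0.051, Fau from -0.10 to 0.026, Rpl3 from -0.0084 to 0.072, Rpl22l1 from -0.049 to 0.10, Rpl22 from -0.0064 to 0.086 and the log2 ratio of Rpl22l1 to Rpl22 from -0.11 to 0.11. The 40S to 60S log2 ratio was 0.0094 without Rps2, Rps12, Rps23 and Rps27a, which were chosen as 40S genes lower in LIGHT tumours, so leaving them out had to move it upward. The cause of the other changes was not tested. TPM holds no depth, so counting error is unknown.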
